A study of Homo sapiens with 6 samples.

Results

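Ribosome profiling of HEK293 cells gave values for 44 DNA repair genes, taken by a rule on symbols. The rule, set with earlier results of these data known, takes FANCA to FANCM. It also takes every gene whose symbol begins with RAD, XRCC, ERCC, MSH or MLH and a number. These genes are 44 of the 10779 genes listed in either deposited table. Of these, 36 had a translational efficiency, among 8121 genes, and 41 had a ribosome occupancy along the transcript, among 9570. The tables shared 33 of them. FANCA, ERCC6L and RAD54L2 had a translational efficiency only, and FANCF, FANCM, MLH3, MSH5, RAD17, RAD51D, RAD52 and XRCC3 had an occupancy only. FANCB, ERCC4, MSH4, RAD9B and RAD21L1 were not analysed here.

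HEK293 is a transformed line from human embryonic kidney, and the labels describe every library as from cells given a control siRNA, so there was 1 condition. The study's methods for ribosome profiling name no siRNA. Before harvest they received cycloheximide (100 µg/ml), which holds ribosomes in place. Ribosome-protected fragments (RPFs) and total RNA were each sequenced in 3 replicates, and the RPF and total RNA libraries of a number came from the same lysate. Translational efficiency was deposited as a linear ratio, RPFs over total RNA, with a value per gene and replicate. Occupancy is the number of in-frame RPFs at each codon, scaled to library size and divided by the abundance of the transcript in total RNA, with the replicates combined. Of 7 genes known to be expressed in HEK293, 6 were listed (VIM, KRT8, KRT18, NEFL, NEFM and LHX1, without PAX2), and of 8 markers of other cell types 0 were listed.

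Cells repair DNA along separate routes. Nucleotide excision repair cuts out bulky lesions, mismatch repair corrects errors of replication, end joining and homologous recombination mend broken ends, and the Fanconi anaemia pathway removes crosslinks between the strands. Most of the proteins work in complexes with partners in fixed proportions, and cultured cells that divide quickly use all of these routes. Ribosome profiling measures how many ribosomes each mRNA carries, not how much protein is present.

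Sequences around the start codon are shown first for the mRNAs at both ends of the range of translational efficiency described next, since the letters beside the start codon are known to bear on initiation. They were read from GENCODE 44 on GRCh37, from the transcript with the same symbol and CDS length, with the start codon in capitals. The 4 mRNAs with a high value lie at chr9:110045901-110045927 (RAD23B, + strand), chr2:216974150-216974176 (XRCC5, +), chr3:9005053-9005079 (RAD18, -) and chr5:131893007-131893033 (RAD50, +). The 3 with a low value lie at chr19:45926616-45926642 (ERCC1, -), chr2:128051641-128051667 (ERCC3, -) and chr5:60240819-60240845 (ERCC8, -). All of these stretches are in exon 1.
RAD23B: cggcggcaccATGcaggtcaccctgaa
XRCC5: gaccggcaacATGgtgcggtcggggaa
RAD18: gggagcgaccATGgactccctggccga
RAD50: gtttgcaaacATGtcccggatcgaaaa
ERCC1: caggctccagATGgaccctgggaagga
ERCC3: tgtagctgccATGggcaaaagagaccg
ERCC8: aggacacgatATGctggggtttttgtc
Counting back from the start codon, the base at position -3 was a purine in 6 of these 7 and a C in ERCC1, and the base after the start codon was a G in XRCC5, RAD18, ERCC1 and ERCC3. Over all matched transcripts with a single start context, 84.2% of 38 repair mRNAs and 85.9% of 8505 mRNAs had a purine at that position. A G directly after the start codon was present in 47.4% and 53.5%, and both letters together in 34.2% and 46.4%. Among those shown, purines at -3 and a G after the start codon occurred in mRNAs of high and of low value.

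Translational efficiency spanned 41.1-fold among the repair genes, from ERCC1 to RAD21. Their median was 0.318, and the median of all genes was 0.385. Below the median of all genes were 23 of 36, and 12 lay in the lowest 25% of all genes while 4 lay in the highest 25%. In a limma fit across all 8121 genes, which set every gene against the overall median on log2(ratio + 0.01), 11 of 36 (30.6%) were called higher and 18 (50.0%) lower at a false discovery rate of 0.05. The same fit called 89.3% of all genes, 44.7% higher and 44.6% lower, so a call by itself is common in these data. The counts below, by route and for other repair genes, are to be read against these shares, and each route holds few genes. The 7 of 36 that were not called were RAD51AP1, RAD1, RAD54B, ERCC6, RAD51B, ERCC6L and XRCC1. Nothing in the labels says that the replicates were separate cultures, and the tests measure the spread between these samples only. The plot of translational efficiency by gene shows 33 of them with their replicates.

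**Figure D1:**
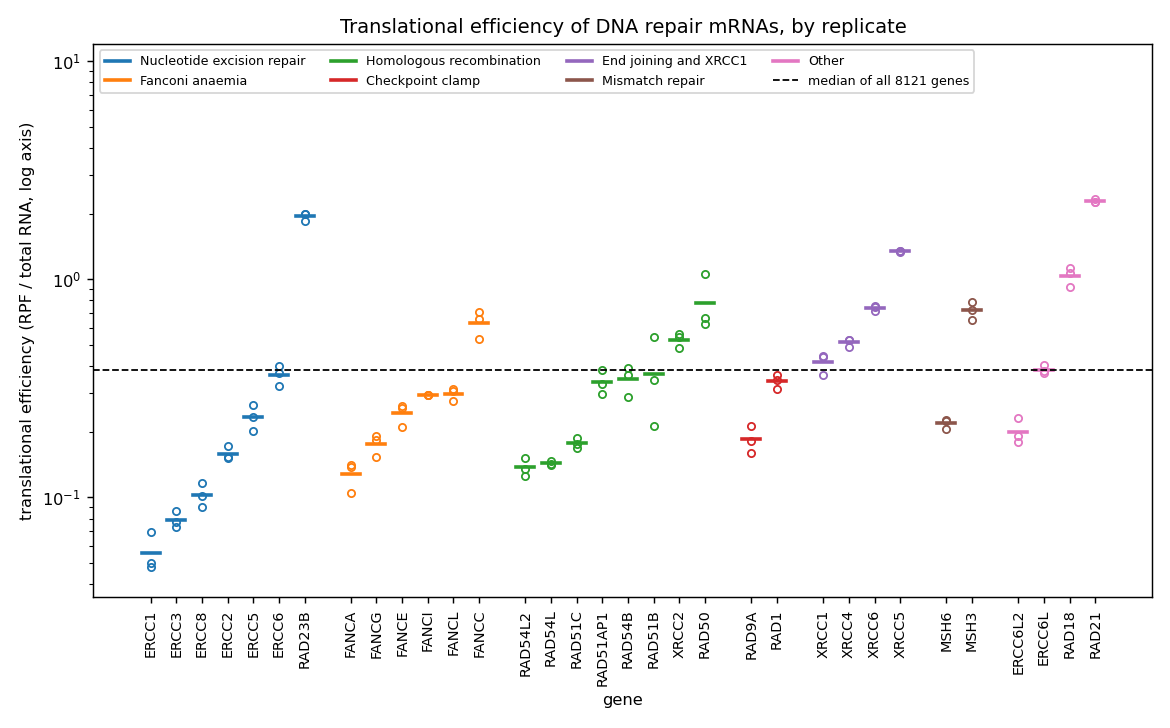
Translational efficiency (RPF over total RNA, log axis) of 33 DNA repair genes, grouped by route. Open circles are the 3 replicates, bars are means and the dashed line is the median of all genes at 0.385. The means of XRCC1, XRCC4, XRCC5 and XRCC6 lie above the line, 6 of the 7 excision repair means plotted lie below it, and RAD23B and RAD21 stand highest.

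The nucleotide excision repair genes that match the symbols held the lowest values, with a median of 0.166. Of these 8, 6 were lower than the median (44.6% of all genes were), 1 was higher (44.7%) and 1 was not called. The 12 other excision repair genes described further on had a median of 0.572. ERCC1, part of the nuclease that cuts on the 5′ side of a lesion, had ratios of 0.0691, 0.0480 and 0.0502 in replicates 1, 2 and 3. This was the lowest of all 36, at 1.43% in the ranking of all genes from low to high, and its log2 difference from the median was -2.59 ± 0.10 (SE, n = 3, limma adjusted p = 9.79e-06). ERCC3 and ERCC2 are the helicases of transcription factor IIH that open the DNA around a lesion. ERCC3 had 0.0867, 0.0732 and 0.0768, and ERCC2 had 0.151, 0.171 and 0.153. The 3 values of ERCC2 lay above those of ERCC3 without overlap, and its mean was 2.01-fold higher.

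ERCC8 and ERCC6 act where RNA polymerase stalls at damage. ERCC8, a subunit of a ubiquitin ligase, had 0.117, 0.102 and 0.0907, and ERCC6, a remodelling ATPase, had 0.40, 0.324 and 0.371. ERCC6 was 3.54-fold higher than ERCC8 with no overlap and did not differ from the median by the test (limma adjusted p = 0.373). ERCC5, the nuclease on the 3′ side of the lesion, had 0.234 ± 0.0312 (SD, n = 3). Nearly all of its coding 30-mers (97.5%) also occur in the read-through transcript BIVM-ERCC5, so its reads cannot be told apart from that transcript.

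RAD23B was the excision repair gene above the median. It can bind XPC, the protein that finds lesions, and it also carries ubiquitinated proteins to the proteasome. RAD23B had ratios of 1.98, 1.99 and 1.85, and its log2 difference from the median was 2.31 ± 0.05 (SE, n = 3, limma adjusted p = 2.14e-06). Of its coding 30-mers, 19.6% also occur in transcripts of other loci, mainly RAD23BP1.

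The genes of end joining and single-strand break repair that match the symbols lay above the median of all genes. XRCC5 and XRCC6, the large and the small subunit of the Ku ring that binds broken ends, had 1.33, 1.34 and 1.35 for XRCC5 and 0.744, 0.716 and 0.755 for XRCC6. Both were higher than the median, and XRCC5 was 1.82-fold higher than its partner, between 1.79-fold and 1.87-fold in the replicates. Much of XRCC6 is shared by sequence, since 51.7% of its coding 30-mers occur in transcripts of other loci, mainly XRCC6P2, while XRCC5 shares 0%. XRCC4, the scaffold of the ligase that seals the ends, had 0.488, 0.529 and 0.527 and was also higher. XRCC1, the scaffold of single-strand break repair, had 0.441, 0.364 and 0.447 and was not called (limma adjusted p = 0.208), but was called higher without replicate 2 (adjusted p = 0.0471). Of this group 3 of 4 were higher and 0 lower, where 44.7% and 44.6% of all genes were.

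In mismatch repair 2 of 3 genes were higher than the median and 1 was lower. MSH6, which takes part in finding single mismatches, had ratios of 0.224, 0.206 and 0.227 and was lower, with a log2 difference of -0.78 ± 0.05 (SE, n = 3, limma adjusted p = 8.05e-05). MSH3, which takes part in finding larger loops, had 0.725, 0.653 and 0.786 and was higher, at 0.89 ± 0.07 (adjusted p = 0.000113). These values of MSH3 and MSH6 do not overlap.

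Of the Fanconi anaemia genes 5 of 6 were lower and 1 was higher, where 44.6% and 44.7% of all genes were. FANCA and FANCG, which bind each other in the core complex, had 0.138, 0.104 and 0.140 and 0.182, 0.154 and 0.192. FANCG was 1.38-fold higher, without overlap. FANCC and FANCE form another module of that complex. FANCC had 0.532, 0.655 and 0.706 and was the only gene of this group above the median, while FANCE had 0.211, 0.262 and 0.257, so that FANCC was 2.59-fold higher. FANCL, the ubiquitin ligase of the complex, had 0.299 ± 0.0202 (SD, n = 3). FANCI, which that ligase modifies together with FANCD2, had 0.295, 0.296 and 0.294, the smallest relative spread of the 36 at a CV of 0.360%.

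Homologous recombination was mixed: of 9 genes, 2 were higher, 4 lower, RAD54L2 among them, and 3 not called. RAD51C, which helps to assemble the filament that searches for the template, had 0.168, 0.176 and 0.186 and was lower than the median. The translocase RAD54L, which acts in strand exchange, had 0.141, 0.147 and 0.143, and its relative RAD54B had 0.289, 0.391 and 0.364, a difference of 2.42-fold with no overlap. RAD54L2 carries the name but is a chromatin remodeller, and it had 0.152, 0.125 and 0.135.

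RAD50 and XRCC2 were the recombination genes above the median. RAD50, the arm of the complex that tethers broken ends, had 1.06 in replicate 1 and 0.621 and 0.662 in replicates 2 and 3. XRCC2, which acts in a complex with RAD51D, had 0.560, 0.485 and 0.542. The widest spread of all 36 was that of RAD51B, a partner of RAD51C, with 0.213, 0.344 and 0.542, a CV of 45.2%. It was not called (limma adjusted p = 0.561), and without replicate 3 it was called lower (adjusted p = 0.0475). RAD51AP1, which promotes strand exchange, had 0.330, 0.298 and 0.385. It was not called either (adjusted p = 0.0832) but was lower without replicate 3 (adjusted p = 0.0265). RAD50 shares 96.7% of its coding 30-mers with an overlapping gene model at its own locus, RAD54B shares 73.5% with FSBP at its locus, and RAD51AP1 shares 9.19% with RAD51AP1P1 elsewhere.

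The checkpoint clamp, a ring that signals damage, gave RAD1 with 0.314, 0.345 and 0.366 and RAD9A with 0.214, 0.160 and 0.182. RAD1 was 1.84-fold above RAD9A without overlap, and 18.9% of its coding 30-mers occur at other loci, mainly RAD1P1. RAD9A was lower than the median, and RAD1 narrowly missed the threshold (limma adjusted p = 0.0519). RAD1 was called lower when the median of each replicate was removed first (adjusted p = 0.0462), with a pseudocount of 0.1 (0.0473) and among genes with a mean ratio of at least 0.05 (0.0389).

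The last group shares the symbols rather than a route. RAD21, a subunit of cohesin, the ring that holds sister chromatids together, had 2.34, 2.26 and 2.27, the highest of the 36. RAD18, the ubiquitin ligase that lets replication pass lesions, had 1.12, 1.07 and 0.919. Both were higher than the median (log2 difference 2.55 ± 0.05 and 1.41 ± 0.07, SE, n = 3). RAD21 shares 16.6% of its coding 30-mers with RAD21P1, and RAD18 shares 0%. ERCC6L, a helicase of mitotic chromosomes, had 0.385 ± 0.0156, and ERCC6L2, a related ATPase, had 0.200 ± 0.0270 (SD, n = 3), lower than the median.

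Of 17 pairs of partners or paralogues, listed with earlier results of these data known, 10 had a translational efficiency for both genes. In all 10 the replicates did not overlap. The share of pairs without overlap among all genes was not computed, so this count is not read as a trait of partners. The 7 pairs given here are those above and in the plot of pairs. A two-sided exact permutation test of 3 against 3 values gave p = 0.1 for each, which is the smallest it can give, so no pair could pass 0.05. The ratios of both genes come from the same 3 lysates. The order within a pair held in each single replicate, as it must where the replicates do not overlap. In the order of all 36 means, 26 of 35 neighbours overlapped in their replicates, so the rank of adjacent genes is mostly not resolved. Neighbours have the closest means by construction, so their overlap is no yardstick for the pairs.

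**Figure D2:**
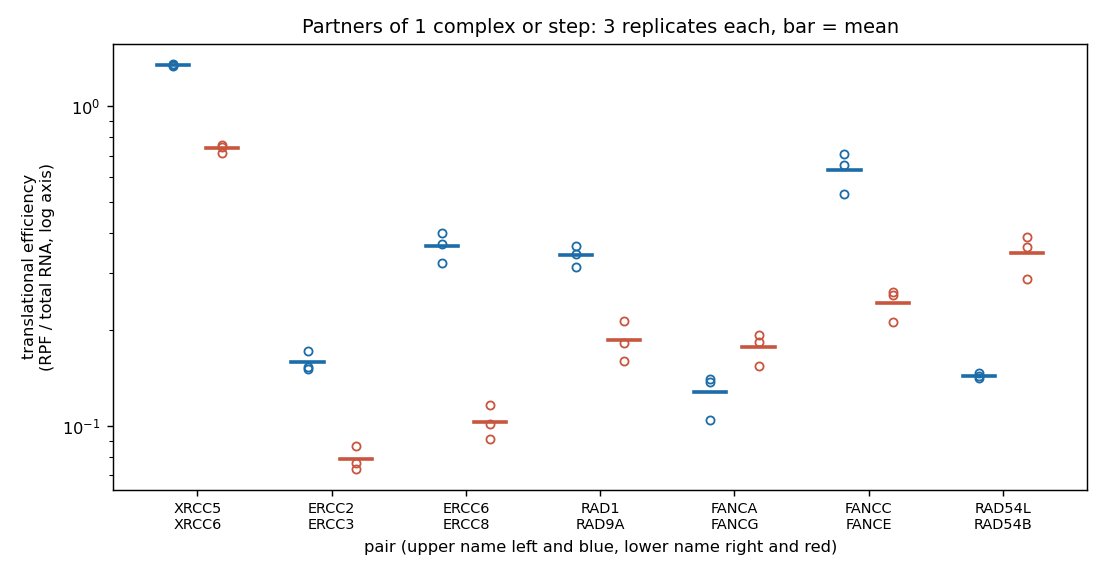
Translational efficiency (log axis) of 7 pairs, with 3 replicates as circles and the mean as a bar. No pair overlaps, and the widest gap shown is between ERCC6 and ERCC8 at 3.54-fold.

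Other genes of the same routes, listed by hand and not matching the symbols, were set beside them. Of 76 such genes with a value, 26 (34.2%) were higher and 43 (56.6%) lower in the same fit, with a median of 0.277. In that fit 44.7% of all genes were higher and 44.6% lower. Among recombination and Fanconi anaemia genes 7 of 27 were higher and 17 lower. The single-strand binding proteins RPA1 and RPA3 were highest with means of 3.58 and 1.61, and BRCA1, which guides the resection of broken ends, and EME1, a partner in a junction nuclease, were lowest with 0.0732 and 0.0935. In excision repair 7 of 12 were higher and 4 lower. GTF2H5, the smallest subunit of transcription factor IIH, had 15.6 and CETN2, a partner of XPC, had 2.92, while DNA ligase LIG1 and the damage sensor DDB2 had 0.0774 and 0.111. Beside ERCC2 and ERCC3, other subunits of transcription factor IIH and its kinase had means of 0.117 for GTF2H1, 0.472 for GTF2H3, 0.542 for CCNH and 0.602 for MNAT1, named after their values were seen.

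In mismatch repair 1 of 7 other genes was higher and 6 lower. The sliding clamp PCNA had a mean of 2.78, PMS2, a MutL homologue, had 0.329, and the polymerase subunits POLD2 and POLD1 had 0.0457 and 0.0495. In end joining and base excision repair 7 of 17 were higher and 9 lower. PARP1, which marks strand breaks, and PRKDC, the kinase that Ku recruits, had 1.95 and 1.51, and the glycosylase MPG and the polymerase POLB had 0.0684 and 0.0924. The end joining genes LIG4, the ligase that XRCC4 holds, NHEJ1 and C9orf142, named after their values were seen, were lower than the median with 0.169, 0.207 and 0.265. Of the checkpoint genes 4 of 13 were higher and 7 lower. RFC3, a clamp loader subunit, and TIPIN, of the fork protection complex, had 1.90 and 0.847, and the kinase CHEK2 and ATRIP, the partner of the kinase ATR, had 0.0835 and 0.201.

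Occupancy gives the position of ribosomes on 41 of the mRNAs. All 16385 of their values above 0 could be written as exactly 1 sum of whole reads from 3 libraries, which gave back 422212 in-frame reads. The coding sequences held a median of 2569 reads, from 86 on MSH5 to 98535 on XRCC6, where all transcripts had a median of 1786. Only MSH5, FANCF, RAD52 and RAD51D had fewer than 300. Of the reads, 99.4% fell on the CDS, 0.550% on the 5′UTR and 0.0656% on the 3′UTR, against 98.7%, 1.06% and 0.269% over all transcripts. The libraries are called A, B and C within each transcript, in order of the rising worth of a read, and could not be tied to replicate numbers, so A need not be the same library on every mRNA. Reading the libraries apart was decided after the data had been seen.

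Mean CDS occupancy ran from 0.00702 on MSH5, a MutS homologue of meiosis that shares 98.8% of its coding 30-mers with MSH5-SAPCD1, to 0.239 on RAD50, a range of 34.0-fold. The median was 0.0378 normalized RPFs per codon, and 0.0450 over all transcripts, and 24 of 41 lay below the latter. The lowest mRNAs after MSH5 were XRCC3, a partner of RAD51C, with 0.00714, and ERCC6L2 with 0.00900. After RAD50 the highest were RAD21 with 0.166, RAD18 with 0.143 and XRCC4 with 0.133. Over the 33 genes with both measures the Spearman coefficient between translational efficiency and occupancy was 0.691, and 0.686 over 6804 genes. This is a description only, since both measures share the RPF libraries.

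RAD50 was also the mRNA whose libraries differed most in the worth of a read. The largest worth was 3.42 times the smallest, where the other 40 mRNAs lay between 1.27 and 2.00. Its occupancy was 0.201, 0.175 and 0.340 in libraries A, B and C, so library C was well above the others. The worth of a read contains the abundance of the mRNA in total RNA, and the translational efficiency of RAD50 was likewise high in a single replicate. Whether these are the same replicate was not tested. Over the 41 mRNAs the median CV between libraries was 5.38%. It was highest on FANCF at 38.8%, followed by RAD50 and then by RAD52 at 30.3%, and FANCF and RAD52 have few reads.

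**Figure D3:**
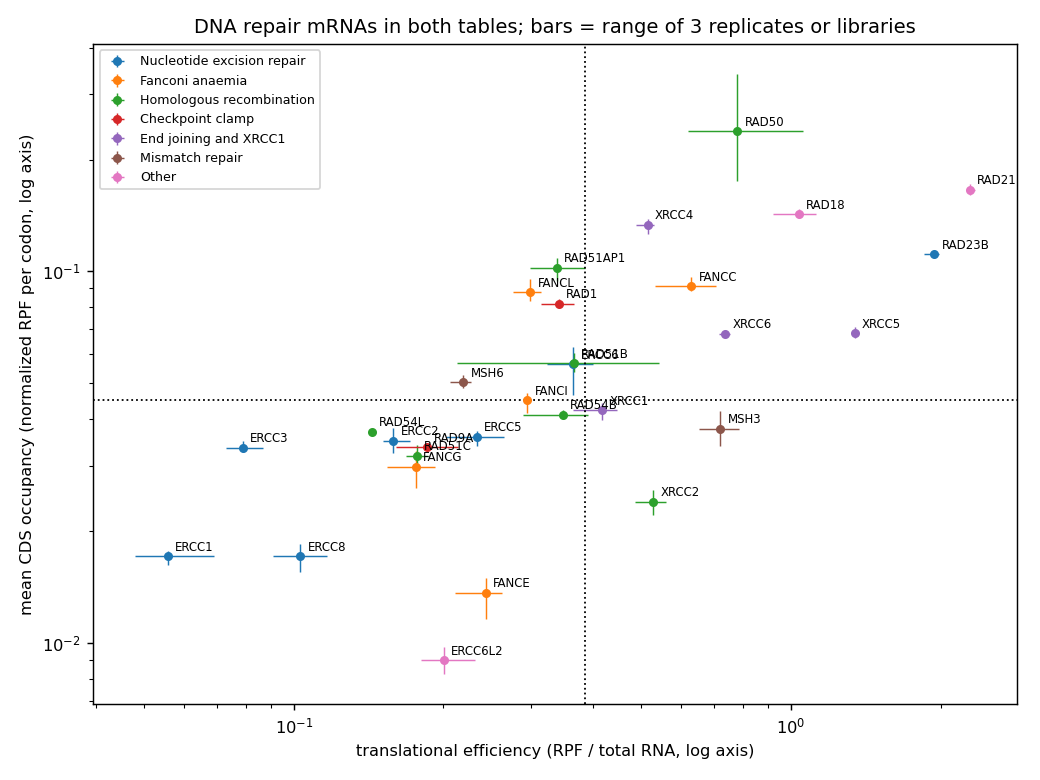
Mean CDS occupancy (normalized RPFs per codon) against translational efficiency for 30 genes with both, on log axes. Bars are the range of 3 replicates or 3 libraries and dotted lines are the medians of all genes. RAD50 has the longest vertical bar, from 0.175 to 0.340, and ERCC1, ERCC8 and ERCC6L2 lie low on both axes.

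The front and the back of the coding sequence differed on most mRNAs. Reads in the first 75 codons were divided by those in the last 75 in each library, 0.5 was added to each count, and limma was fitted across the 7711 transcripts with at least 20 reads per library in the windows, a test added after the data had been seen. Of the 36 repair mRNAs in the fit, 28 differed: 15 (41.7%) had more reads at the front and 13 (36.1%) more at the back. The fit called 76.8% of all transcripts, 37% toward the front and 39.9% toward the back, so the share is near that of all mRNAs. MSH5, ERCC6L2, RAD52, MLH3 and FANCF had too few reads for the fit.

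By route, 7 of 10 homologous recombination mRNAs had more reads at the front, 3 had more at the back and 0 were not called. Over all transcripts in the fit the shares were 37% at the front and 39.9% at the back. The front-loaded ones were XRCC3, RAD54B, RAD51B, RAD54L, RAD51AP1, RAD51D and RAD51C. RAD51D shares 69.3% of its coding 30-mers with an overlapping gene model, and RAD54B shares 73.5% with FSBP at its locus. XRCC3 had 106, 88 and 72 reads in the first window and 22, 23 and 4 in the last, a log2 ratio of 2.72 (95% interval 1.97 to 3.47, limma adjusted p = 2.71e-05). RAD54B followed with 263, 185 and 103 reads against 55, 51 and 27 (log2 ratio 2.00, interval 1.70 to 2.30). RAD51B had 87, 64 and 54 against 24, 17 and 15. Its first window includes codon 19, its highest single codon, whose reads are given further on. In every library of these mRNAs the front exceeded the back.

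RAD54L and RAD51AP1 had log2 ratios of 1.83 and 1.78. RAD54L, however, did not fall along its whole length, because its first 10% of codons held 12.6%, 10.7% and 12.1% of the reads, close to an even share, and its last 10% held 2.88%, 3.51% and 3.57%. On XRCC3 the first 10% held 39.1%, 37.1% and 39.1%, and on RAD51AP1 it held 20.7%, 21.2% and 18.9%. XRCC2 and RAD50 went the other way, with log2 ratios of -0.38 and -0.67. The call of XRCC2 was not stable: it turned to the front with windows of 50 codons (log2 ratio 1.5, adjusted p = 0.000548), and it was lost without library A (adjusted p = 0.114) or library C (0.211).

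The strongest tilt to the back was on FANCE, with 10, 7 and 3 reads in the first window and 50, 43 and 18 in the last (log2 ratio -2.40, interval -2.99 to -1.81). Its first 10% of codons held 0.926%, 1.27% and 1.48% of the reads, and the stretch of the same length just before the middle held 27.1%, 25.7% and 21.7%. MSH3 had 29, 40 and 28 reads against 197, 119 and 113 (log2 ratio -2.10, interval -2.56 to -1.64). FANCI, MSH6, RAD50 and ERCC1 followed with -0.90, -0.77, -0.67 and -0.66.

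In excision repair, 2 mRNAs had more at the front, among them ERCC3 with a log2 ratio of 1.45, and ERCC1, ERCC5 and RAD23B with -0.66, -0.48 and -0.32 had more at the back. Several calls depended on the window. With 50 codons ERCC1, ERCC5, FANCL and RAD21 changed sign, and XRCC4 was called toward the front (0.80). XRCC6, called toward the back at -0.26, was called toward the front at 0.21 without the first 15 and last 5 codons. Calls were also lost for RAD9A without library A (adjusted p = 0.0845) or B (0.199), for FANCL without A (0.0516) and for FANCM without C (0.115), while ERCC8 was called toward the back without C (0.0446).

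**Figure D4:**
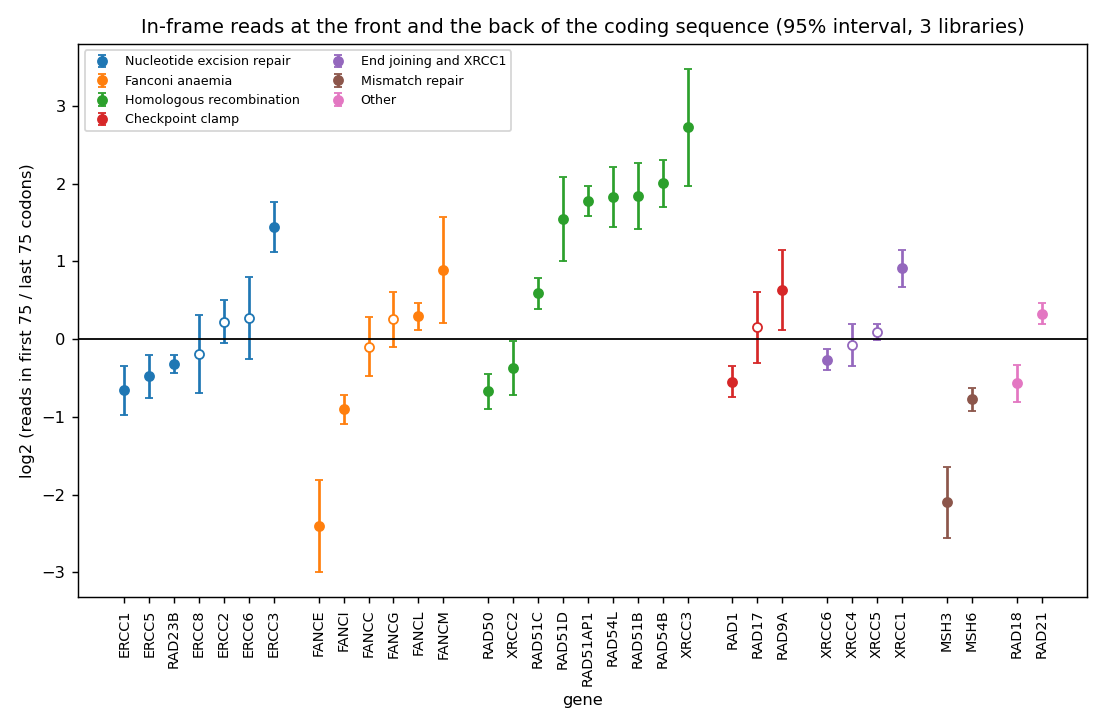
Log2 ratio of reads in the first 75 over the last 75 codons for 33 mRNAs by route, with 95% intervals from 3 libraries. Filled points passed the test and open points did not. The 7 highest homologous recombination mRNAs lie above 0, up to 2.72 for XRCC3, and FANCE lies lowest at -2.40.

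**Figure D5:**
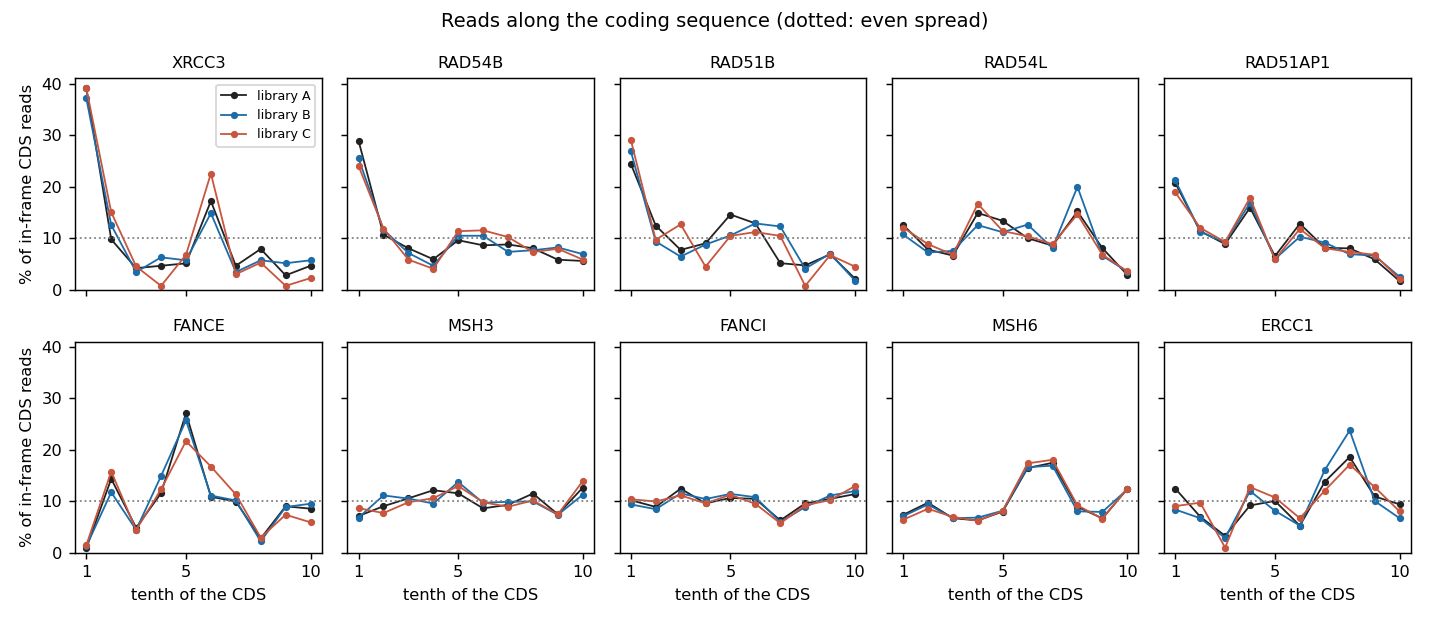
Percent of in-frame CDS reads in 10 equal stretches of the coding sequence, 1 line per library, for the 5 mRNAs with the highest (top) and the 5 with the lowest (bottom) ratio of mean occupancy in the first to the last 75 codons. An even spread is 10% per stretch. XRCC3 begins at 37.1% to 39.1%, and FANCE begins at 0.926% to 1.48% and peaks just before the middle.

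Single codons that held many reads were looked for inside the CDS, without the first 15 and last 5 codons, on the 37 mRNAs with reads on at least 30% of codons. The sequences around the 5 highest relative to the CDS mean are shown with the codon in capitals, since they are where ribosomes were densest. RAD51B codon 19 lies in exon 2 at chr14:68290303-68290332 (+ strand), FANCE codon 239 in exon 2 at chr6:35423978-35424007 (+), and ERCC6 codon 78 in exon 2 at chr10:50740762-50740791 (-). The stretch at XRCC1 codon 16 spans exon 1 at chr19:44079560-44079577 and exon 2 at chr19:44079143-44079154 (-). That at XRCC6 codon 504 spans exon 11 at chr22:42054332-42054356 and exon 12 at chr22:42057335-42057339 (+).
RAD51B codon 19: ctgtgtgaccgtCTGagtagacatcagatc
FANCE codon 239: gaacataagtcaCTGgaatccctggcagat
XRCC1 codon 16: tgcagcagccagGACtcgactcactgtgca
ERCC6 codon 78: cacatcgaccgaCATcagatccaggcagta
XRCC6 codon 504: ccggaacaagcaGTGgacctgacattgccc
The codon of RAD51B was 45.4 times its CDS mean and held 27 of 233, 19 of 171 and 22 of 134 reads in libraries A, B and C, or 13% ± 2.94 (SD, n = 3). That of FANCE was 43.5 times the mean with 34, 23 and 19 reads. FANCE thus had its highest codon in the stretch in which its profile peaked.

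The codon of XRCC1 was 39.4 times the CDS mean and held 6.26% ± 1.60 of the reads (SD, n = 3). It was the first codon that the search took in, and the first 10% of codons of XRCC1 held 26.7%, 28.8% and 31.8% of its reads. The codon of XRCC6 was 35.4 times the mean and held 5.81% ± 0.986, and the stretch shown is also present in transcripts of other loci. The codon of ERCC6 was 37.2 times the mean but rested on 28, 10 and 15 reads, and it was the highest in 2 of 3 libraries. Each of the other 4 was the highest in all 3. Over 41 repair mRNAs the same codon was highest in every library on 12 (29.3%), where 34.2% of all transcripts had this. Among them were FANCE, RAD52, RAD9A, XRCC1, MSH6, RAD51B, XRCC6, XRCC5, FANCL and RAD21. Set against the 50 codons on either side in place of the CDS mean, the codon of FANCE fell to 21.7 times and that of XRCC1 to 17.4 times, while ERCC6 rose to 53.5 times. The CDS counts the stop codon, and the bases of a footprint at a codon are set by the authors' offset.

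Reads in frame upstream of the start codon were few. In the 17 codons next to the CDS, on the 27 repair mRNAs with a 5′UTR over 100 nt, the median occupancy was 0.00165 per codon, and 0.00195 over 6907 mRNAs. On 6 (22.2%) it was 0, where 29.8% of all mRNAs were at 0. Among them were ERCC1, FANCE, XRCC1, FANCG and MSH5, and a count of 0 allows up to 3 reads, or an occupancy of 0.000870 on ERCC1 and 0.0128 on MSH5. Among mRNAs with reads on at least 30% of codons the highest were FANCC with 0.0855, RAD54B with 0.0442, XRCC4 with 0.0283, RAD54L with 0.0225 and RAD51AP1 with 0.0131. MLH3, below that coverage, had 0.0176 from 4 reads.

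Sequences around the codon with most reads in that window are shown for FANCC, RAD54L and RAD51AP1, with the codon in capitals, because a reader may look for an upstream open frame there. They lie at chr9:98011592-98011621 in exon 2 (FANCC, - strand), chr1:46714051-46714080 in exon 1 (RAD54L, +) and chr12:4648058-4648087 in exon 1 (RAD51AP1, +).
FANCC 12 codons before the start: gctggacaggctGCTgtgaagggacatcac
RAD54L 5 codons before the start: ttgacgttttaaACTcctaggcccaggatg
RAD51AP1 12 codons before the start: agccaacaagaaTTTgagaactgtaaatac
FANCC had 25, 11 and 11 reads in the window, which lay at the percentile of 98.0 of all mRNAs and reached 0.938 of its own CDS mean. The frame of its CDS was open for 24 codons before the start, with no ATG in it, and 55 of the 76 reads of its 5′UTR lay in that stretch. The codon shown held 9, 2 and 2 reads, so no single codon made up the signal. The matched transcript, whose 5′UTR differs in length, held 2 upstream ATGs over all frames on FANCC, 4 on RAD54L and 0 on RAD51AP1. Occupancy counts reads in the frame of the CDS only.

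RAD54L had 16, 10 and 9 reads in the window, of which 7, 4 and 5 lay on the codon shown. An in-frame stop lay next to it, 6 codons before the start. RAD51AP1 had 16, 9 and 11 reads, with 13, 5 and 9 on the codon shown, so a single codon held most of them. RAD54B had 20, 18 and 15 reads, 4, 9 and 11 of them 4 codons before the start, and its window reached 1.07 times its CDS mean. Without the 5 codons next to the start its occupancy dropped from 0.0442 to 0.0267, below FANCC at 0.0837. On XRCC4, 19 of 22 reads lay on the codon directly before the start, and without the 5 codons next to the start its occupancy dropped from 0.0283 to 0.00583. Some 5′UTRs of 100 nt or less also held reads, which was seen after their values were known. ERCC8, with a 5′UTR of 20 codons, had 78 reads there and 761 in the CDS, so that 9.30% of its in-frame reads lay in the 5′UTR, the highest share of the 41.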

How the data were processed

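Ribosome profiling and total RNA sequencing of HEK293 cells, 3 libraries each, were used as deposited. Per the labels and the methods, the authors trimmed reads (cutadapt 1.16), removed PCR duplicates, aligned RPFs to the hg19 transcriptome (Bowtie 1.1.2) and counted total RNA reads (HTSeq 0.9.1). The labels name TopHat2 2.1.1 for alignment, and the methods name another aligner for total RNA. The deposited translational efficiency is a linear ratio per gene and replicate, whose calculation the sources used here do not give. Deposited occupancy values, lists of 1 number per codon, are in-frame RPF counts that the authors normalized for library size, divided by transcript abundance and combined over replicates.

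The ratios were tested with limma 3.58.1 (R 4.3.3) on log2(ratio + 0.01) minus their overall median, with Benjamini-Hochberg adjustment over all 8121 genes at 0.05 and no filter on low values. Per the methods, each replicate number stands for a lysate that gave an RPF and a total RNA library, and the ratio of a replicate holds that pairing. Whole reads were recovered from the occupancy values as sums of 3 steps at a relative tolerance of 1e-12. Over all transcripts 99.9% of 2800479 values above 0 were written as exactly 1 sum, and 9437 transcripts with at least 99% such values were used for reads. The recovery and both fits were tested on simulated data. Intervals and limits from counts cover counting error only.

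Transcripts were matched to GENCODE 44 on GRCh37 by symbol and CDS length. This matched 39 of 41, without ERCC6L2 and MSH6, and only 1 had the same 5′UTR length, so 5′UTR sequence was printed only where matched transcripts had the same letters. Shared sequence is the percent of coding 30-mers found in another gene's transcripts. Python 3.11.15, numpy 2.4.6, scipy 1.17.1 and pandas 2.3.3 were used. The genes, the lists of other repair genes and the pairs were chosen with earlier results of these data known. Named genes were the pairs, the 5 highest and 5 lowest ratios, the 2 highest CVs, the 5 extremes of each occupancy measure among mRNAs with reads on at least 30% of codons, and the 2 highest and 2 lowest other genes of each list. Some genes that the rule takes stay in the counts but are not reported here.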

Additional observations from a re-analysis of the deposited data

Results flagged for a closer look

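The report gives only the pooled share of reads in the 3′UTR, and 9 of the 41 repair mRNAs had more in-frame reads there than the 3 that a count of 0 allows. XRCC2 stood apart with 164 reads, 57, 77 and 30 in libraries A, B and C. They made up 16% of its in-frame reads (95% exact Clopper-Pearson interval 13.8 to 18.4, counting error only). Of the first 30 codons after its stop codon 0 held a read, and the reads lay on 35 codons between codon 31 and codon 702 of the 726 in its 3′UTR. The codon with most of them, 363 codons after the stop, held 20, 15 and 3. The source of these reads was not tested.

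RAD1 had 28 such reads, RAD23B 14, ERCC6L2 13, XRCC6 12, MSH3 10, FANCE 8, and RAD21 and FANCC 4 each. On XRCC6, 11 of the 12 lay within 30 codons of the stop codon. On MSH3, 9 of the 10 came from library A. Groups of 3 replicates were not tested for samples that stand apart.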

How the results depend on the processing

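Calls on translational efficiency held. Against 29 of 36 repair genes called, the alternatives gave 29 to 30, and leaving out a replicate gave 29 to 31, with all 29 calls kept in direction. With the replicate block, the median of each replicate removed before the fit, 30 were called (11 higher, 19 lower), the added gene being RAD1, and the pairing changed no other call. Of the other repair genes, 69 were called, 67 to 70 under the alternatives and 68 to 69 without a replicate. Without the genes that share coding sequence, chosen after seeing the data, 22 of 25 were called. The 10 pairs stayed apart without each replicate, which follows from their lack of overlap in all 3 and is no further support. The median ratio of 0.318 ranged from 0.293 to 0.326 without a replicate.

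The level of occupancy depends on the summary: its median of 0.0378 became 0.00970 as a median over codons and 0.0324 without the 1% highest codons, and 0.0371 to 0.0398 without a library. The median ratio of first to last 75 codons, 1.13, was 1.04 without the highest codon of each window. It was 1.15 with 50 codons and 1.21 without the first 15 and last 5 codons. The highest codon had a median of 19.2 times the CDS mean and 17.1 times its surroundings. Window calls, with alternatives chosen after seeing the data, numbered 28, then 25 to 27 under each alternative and 25 to 27 without a library. Each alternative window took in fewer of the repair mRNAs than the main fit, so its number of calls is not over the same mRNAs. With 50 codons the log2 ratio changed sign for ERCC1 (0.26), ERCC5 (0.13), FANCL (-0.49), RAD21 (-0.40), XRCC2 (1.5) and XRCC4 (0.80), and without the first 15 and last 5 codons for XRCC6 (0.21). The cause was not tested. Below about 300 reads per mRNA, as on MSH5, FANCF, RAD52 and RAD51D, profiles are limited by depth.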
